A study of Homo sapiens with 12 samples.

Results

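The data described here are the expression values of 36 genes of glucose transport, glycolysis and the hypoxia response in breast cells that were given the microRNA hsa-miR-140-3p or its 5'isomiR. The genes were taken by symbol from a list that names glucose and monocarboxylate transporters, every step of glycolysis, lactate dehydrogenases, targets of the hypoxia-inducible factor (HIF) and oxygen sensors. Of the 36 genes, 33 had a probe on the array in the annotation used, and 31 of them were above background on at least 2 of 12 arrays and were tested among 10491 genes in all. PDK1, a kinase that inhibits pyruvate dehydrogenase, and EGLN3, an oxygen-sensing prolyl hydroxylase, had 1 probe each, which was at background on all 12 arrays. SLC16A1, SLC16A3 and CA9 were not analysed here, since no probe carried their symbol in that annotation.

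The 12 arrays formed 6 groups of 2 in the cell lines MDA-MB-231 and MCF10A. In each line, cells had been transfected with a mimic of 5'isomiR-140-3p, a mimic of hsa-miR-140-3p or a negative control mimic, at 30 nM, and RNA was taken after 48 h. The 2 arrays of each microRNA mimic were replicates, while the 2 control arrays of a line held 2 different control mimics (mimic-ctrl1 and mimic-ctrl2), 1 array each. MDA-MB-231 is a breast cancer line without estrogen receptor, and MCF10A is a non-transformed breast epithelial line. The comparisons are of transfected mimics and not of endogenous microRNAs, and the canonical mimic and its isomiR were given to separate cells.

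Glucose enters mammary cells mainly through facilitative transporters of the SLC2A (GLUT) family, is trapped by hexokinase and is broken down to pyruvate, which lactate dehydrogenase converts to lactate. When oxygen is scarce, the prolyl hydroxylases of the EGLN family stop marking HIF1A for degradation, and HIF1A then induces many of these transporters and enzymes. MicroRNAs lower transcripts whose 3' untranslated regions pair with the seed, bases 2 to 8 of the mature strand. Both mimics derive from the same hairpin on chromosome 16, and the isomiR starts 1 base later, so that its seed differs. Their sequences are shown because the mimics differ in the seed, which is in capitals (RefSeq, GRCh38.p14, plus strand).
5'isomiR-140-3p: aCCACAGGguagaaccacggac
hsa-miR-140-3p: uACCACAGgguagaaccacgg
The isomiR spans chr16:69933143-69933164 and the canonical form chr16:69933142-69933162, and the 2 mimics are called the isomiR and the canonical form from here on.

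Epithelial markers set the lines apart, and mesenchymal markers did so in part. The epithelial and basal genes CDH1, KRT5, KRT14 and DSG3 were at background on all 6 MDA-MB-231 arrays and above it on all 6 MCF10A arrays. EPCAM and LAMB3 were above it on all arrays of both lines, and S100A2 on all 6 MCF10A and 5 of 6 MDA-MB-231 arrays. All 7 were called lower in MDA-MB-231 under control mimics (19.9% of all genes), S100A2 at 1.89% of its MCF10A level. Of 10 mesenchymal genes, 7 were above background in each line. Of the 7 tested, 4 (VIM, MSN, CDH11 and AXL) were called higher in MDA-MB-231 under control mimics (20.5% of all genes) and 1, TGFBI, lower (19.9%). On the log2 scale AXL averaged 12.8 over all MDA-MB-231 arrays and 8.79 over all MCF10A arrays, and TGFBI 9.98 and 13.05. CAV1 (12.9 and 12.7) and CD44 (12.5 in each) differed little between the lines, and ZEB1, FN1 and SPARC were at background in both. The genes ESR1 and PGR, which encode the estrogen and progesterone receptors, were at background throughout, as were the leukocyte genes PTPRC and CD3E. Of the luminal markers listed with ESR1 and PGR, GATA3 and FOXA1 were above background on all 6 MCF10A arrays and no MDA-MB-231 array. ERBB2 was above it on all arrays of both lines, as was CD68, which was listed with PTPRC and CD3E. Levels in what follows are log2 intensities after background correction and quantile normalization. A gene was called when it was under 65% of, or more than 65% above, the group it was set against with an adjusted p (Benjamini-Hochberg, limma) under 0.05. Each error is that of 2 arrays a group, with 1 estimate of the spread over all 6 groups.

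SLC2A3, which encodes the high-affinity glucose transporter GLUT3, fell in MCF10A cells with both mimics. Its level was 6.42 and 6.10 on the isomiR arrays, 6.36 and 6.53 on the canonical arrays, and 7.98 and 8.09 on the control arrays. All 4 mimic arrays were therefore below both control arrays. In RNA from a whole culture, fewer expressing cells and less RNA per cell cannot be told apart. With the isomiR it fell to 29.3% of control (log2 fold change -1.77 ± 0.13 SE, adjusted p = 5.1e-05 by limma), and with the canonical form to 33.3% (-1.59 ± 0.13, adjusted p = 0.0014). The canonical form's call was lost when MCF10A was fitted on its own (adjusted p = 0.076). The difference between the mimics, -0.18 with a 95% interval from -0.48 to 0.12, was not called, and their arrays overlapped.

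In MDA-MB-231 cells the same transporter was called with neither mimic. SLC2A3 stood at 11.60 and 11.64 with the isomiR, at 11.02 and 10.98 with the canonical form, and at 11.28 and 11.18 with control mimics. The 3 groups did not overlap, with the isomiR arrays highest and the canonical arrays lowest. The fold changes against control were small (0.39 ± 0.13, adjusted p = 0.095, and -0.23 ± 0.13, adjusted p = 0.47). The isomiR exceeded the canonical form by 0.62 ± 0.13 (adjusted p = 0.022), which is 154% of the canonical level and short of the 65% required. The change of SLC2A3 with the isomiR differed between the lines by 2.16 (MDA-MB-231 minus MCF10A, 95% interval 1.73 to 2.58, adjusted p = 0.00044). For the canonical form the corresponding difference was 1.35 (0.93 to 1.78), with an unadjusted p of 3.6e-05 and an adjusted p of 0.17, and no gene of the whole table was called in that contrast (0%).

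The SLC2A3 signal was low in MCF10A. On the deposited scale it read 167 and 150 with the isomiR, 163 and 173 with the canonical form, and 334 and 357 with control mimics, where the background level of the arrays lay between 129 and 142. In MDA-MB-231 the deposited values were 3171 and 3320 with the isomiR, 2170 and 2140 with the canonical form, and 2587 and 2428 with control mimics. Without background correction the MCF10A changes were smaller, -1.10 with the isomiR and -1.01 with the canonical form, and remained called. SLC2A3 has a single probe. The near-identical gene SLC2A14 (GLUT14) also has a single probe, which was at background on all 12 arrays, and whether RNA of SLC2A14 binds the SLC2A3 probe was not tested.

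**Figure D1:**
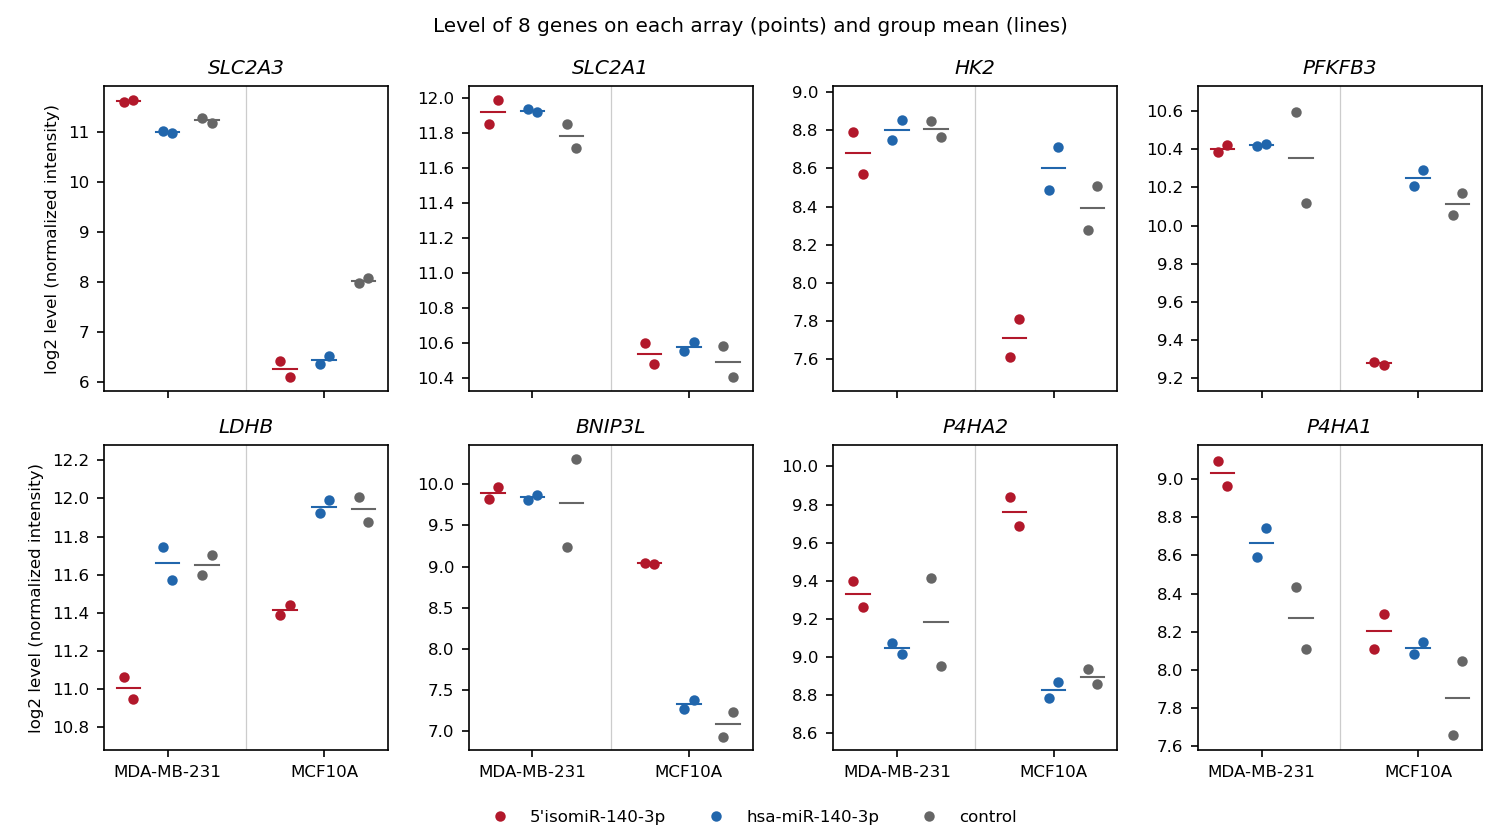
Log2 level (normalized intensity, y axis) of 8 genes on each of the 12 arrays, as points, with the mean of each group of 2 arrays as a line. Within each line the groups run 5'isomiR-140-3p, hsa-miR-140-3p and control. SLC2A3 was between 6.10 and 6.53 on the 4 mimic arrays of MCF10A, below the control arrays at 7.98 and 8.09, and each panel has its own y axis.

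No other member fell as far as SLC2A3 in MCF10A. With the canonical form its log2 fold change was the lowest of the 31 members and the 5th lowest of 10491 genes, while the other 30 members had a median of 0.12 and ran from -0.74 (HIF1A) to 0.53 (ANKRD37). With the isomiR it was again the lowest member, and the 36th lowest gene of the table, beside a median of -0.04 over the others. In MDA-MB-231 it ranked 26th from the lowest with the isomiR, where the others had a median of 0.14, and 2nd from the lowest with the canonical form, where their median was 0.04. These ranks are a description, since SLC2A3 was singled out with its values known.

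SLC2A1 (GLUT1), the other glucose transporter of the list, gave no call under either mimic. In MDA-MB-231 its level was 11.85 and 11.99 with the isomiR, 11.94 and 11.92 with the canonical form, and 11.85 and 11.71 with control mimics. In MCF10A it was 10.60 and 10.48 with the isomiR, 10.55 and 10.61 with the canonical form, and 10.58 and 10.41 with control mimics. Its 4 log2 fold changes against control lay between 0.05 and 0.15, and the highest upper end of their 95% intervals was 0.41. The lower ends of all 4 intervals were above the fold changes of SLC2A3 in MCF10A.

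Over all members, calls against control were few. In MDA-MB-231 the isomiR called 3 of 31 members, where 7.5% of all genes were called, with 1 lower (5.09% of all genes) and 2 higher (2.41%). In MCF10A it called 5 of 31 (12.6% of all genes), with 3 lower (7.34%) and 2 higher (5.25%). Members were thus called at shares near those of the whole table. The canonical form called none of the 31 in MDA-MB-231 (1.21% of all genes, 1.02% lower and 0.191% higher), where limma gave 3 members an unadjusted p under 0.05 and the methods' t-test called none. In MCF10A it called 1 member, SLC2A3, lower and none higher (0.867% of all genes, 0.724% lower and 0.143% higher). The median log2 fold change of the 31 members with the isomiR was 0.14 in MDA-MB-231 and -0.05 in MCF10A, and with the canonical form it was 0.03 in MDA-MB-231 and 0.10 in MCF10A, beside medians within 0.01 of 0 over all genes.

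The overlap of the arrays was counted over all 31 members, called or not. In MDA-MB-231 both isomiR arrays were above both control arrays for 10 of 31 members (25.8% of all genes) and below them for 5 (25.5%), and both canonical arrays were above for 8 (21.4%) and below for 6 (22.2%). In MCF10A both isomiR arrays were above both control arrays for 10 members (30.7%) and below for 12 (30%), and both canonical arrays were above for 13 (22.8%) and below for 3 (21.8%). The isomiR arrays were above the canonical arrays for 12 members in MDA-MB-231 (30.8%) and 5 in MCF10A (32.5%), and below them for 3 (28.7%) and 13 (33.1%). The 3 comparisons of a line share their arrays, so these counts are not independent of each other, and no test was made on them.

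Among the genes of the upper steps of glycolysis, the isomiR lowered HK2 and PFKFB3 in MCF10A. HK2, a hexokinase that is abundant in many tumours, stood at 7.61 and 7.81 with the isomiR, against 8.28 and 8.51 with control mimics, a fall to 62.4% (-0.68 ± 0.14, adjusted p = 0.0094). With the canonical form it was 8.49 and 8.71, which overlapped the controls, and the isomiR lay below the canonical form by 0.89 ± 0.14 (adjusted p = 0.0027). A second HK2 probe gave a fold change of -0.15 with the isomiR, so the 2 probes disagreed. The call against control was lost without MCF10A control replicate 2 (-0.56), without MCF10A isomiR replicate 1 (-0.58), without background correction (-0.52), and with the mean of both probes (-0.41). With that mean the call against the canonical form was lost as well (-0.51).

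PFKFB3 makes fructose 2,6-bisphosphate, the strongest activator of phosphofructokinase. Its level was 9.28 and 9.27 with the isomiR in MCF10A, 10.21 and 10.29 with the canonical form, and 10.05 and 10.17 with control mimics. The isomiR arrays stood apart from the other 4, at 56.0% of control (-0.84 ± 0.15, adjusted p = 0.0041) and 50.9% of the canonical form (-0.97 ± 0.15, adjusted p = 0.0021). A second, dimmer probe of PFKFB3 gave -0.42 with the isomiR. In MDA-MB-231 it was not called, with 10.38 and 10.42 on the isomiR arrays and 10.59 and 10.12 on the control arrays.

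ALDOC, the brain-type aldolase, was 8.48 and 8.37 with the isomiR in MCF10A, 9.18 and 9.19 with the canonical form, and 9.16 and 8.91 with control mimics. It was called lower against the canonical form (-0.76 ± 0.19, adjusted p = 0.021) and narrowly missed the 65% limit against control (65.7%, adjusted p = 0.047). Leaving out any 1 of the 4 mimic arrays of MCF10A left its fold change against the canonical form between -0.81 and -0.70 and ended that call. PFKFB4, a relative of PFKFB3, had -0.34 ± 0.24 against control and -0.75 ± 0.24 against the canonical form in MCF10A (adjusted p = 0.057), and was not called. PFKL, the liver-type phosphofructokinase, had positive fold changes with both mimics in both lines, from 0.49 to 0.80, none of which was called. Its 2 control arrays differed more than any other member's in MCF10A, at 6.77 and 7.67. HK1, GPI, PFKM, PFKP and ALDOA, which complete the upper steps, were not called with either mimic, and the fold changes of HK1, PFKM and PFKP in MDA-MB-231 were negative with both, between -0.44 and -0.15. PFKP, the platelet-type phosphofructokinase, was 11.23 and 11.39 with the isomiR in MDA-MB-231, below its 11.76 and 11.74 with control mimics (adjusted p = 0.061).

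The genes of the lower steps of glycolysis gave no call. TPI1, GAPDH, PGK1, PGAM1, ENO1, ENO2 and PKM were past the threshold with neither mimic in either line, and their fold changes against control lay between -0.14 and 0.29. GAPDH, which is often used as a reference gene, was 13.78 and 13.76 with the isomiR in MDA-MB-231 and 13.84 and 13.67 with control mimics. In MCF10A it was 13.60 and 13.63 with the isomiR and 13.71 and 13.80 with control mimics, a difference of -0.14 ± 0.13. ENO2, the neuronal enolase, was at background on all 6 MCF10A arrays and gives no fold change there.

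At the exit of the pathway LDHB was called and LDHA was not. LDHA, the subunit that favours lactate formation, had fold changes between -0.07 and 0.13 in the 4 comparisons with control. LDHB, the subunit that favours use of lactate, was 11.06 and 10.95 with the isomiR in MDA-MB-231, 11.74 and 11.57 with the canonical form, and 11.60 and 11.70 with control mimics. The isomiR arrays were the lowest, at 63.9% of control (-0.65 ± 0.12, adjusted p = 0.0077) and 63.6% of the canonical form (-0.65 ± 0.12, adjusted p = 0.0097). In MCF10A, LDHB was 11.39 and 11.44 with the isomiR, 11.92 and 11.99 with the canonical form, and 12.01 and 11.88 with control mimics. That is 69.2% of control (-0.53 ± 0.12, adjusted p = 0.012), past the p threshold but not the fold limit.

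The effects of the isomiR on LDHB in the 2 lines differed by -0.12 (MDA-MB-231 minus MCF10A, 95% interval -0.49 to 0.26, not called), and the canonical form gave 0.01 in both. In MDA-MB-231 the call against control sits close to the limit of 65%, and it was lost without control replicate 2 (-0.59), without isomiR replicate 2 (-0.59) and with median scaling (-0.62). The call against the canonical form was lost without canonical replicate 1 (-0.57) and without isomiR replicate 2 (-0.59). LDHB had 1 probe.

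Among the HIF targets, the isomiR raised BNIP3L and P4HA2 in MCF10A, and neither was called in MDA-MB-231. BNIP3L (NIX) encodes a mitochondrial receptor for mitophagy, the removal of mitochondria. Its level was 9.05 and 9.03 with the isomiR in MCF10A, 7.28 and 7.38 with the canonical form, and 6.94 and 7.24 with control mimics. This was the largest rise of any member, 3.87-fold over control (1.95 ± 0.27, adjusted p = 0.0011) and 3.27-fold over the canonical form (1.71 ± 0.27, adjusted p = 0.0024). The second probe had a fold change of 1.43 over control.

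In MDA-MB-231 BNIP3L was 9.83 and 9.97 with the isomiR and 9.24 and 10.30 with control mimics, so the isomiR arrays lay between the control arrays. Its close relative BNIP3 did not share the rise in MCF10A, where its fold change was -0.24. The effects of the isomiR on BNIP3L in the 2 lines differed by -1.83 (MDA-MB-231 minus MCF10A, 95% interval -2.69 to -0.97, adjusted p = 0.025).

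P4HA2 and P4HA1 encode catalytic subunits of the prolyl 4-hydroxylase that modifies collagen. P4HA2 was 9.84 and 9.69 with the isomiR in MCF10A, 8.78 and 8.87 with the canonical form, and 8.94 and 8.86 with control mimics. It rose 1.82-fold over control (0.87 ± 0.15, adjusted p = 0.0039) and 1.91-fold over the canonical form (0.94 ± 0.15, adjusted p = 0.003). A second bright probe gave 0.82 and the third, which was above background on 4 arrays, had 0.22. With the mean of all 3 probes the fold change was 0.64 over control and 0.62 over the canonical form, and both calls were lost.

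In MDA-MB-231 P4HA2 was 9.40 and 9.26 with the isomiR and 9.42 and 8.95 with control mimics, and the lines differed in the isomiR effect by -0.72 ± 0.22 (MDA-MB-231 minus MCF10A), which was not called (adjusted p = 0.095).

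P4HA1 and ANKRD37 rose with the isomiR in MDA-MB-231. P4HA1 was 9.10 and 8.97 with the isomiR, 8.59 and 8.74 with the canonical form, and 8.44 and 8.11 with control mimics (0.76 ± 0.16 for the isomiR against control, adjusted p = 0.016). ANKRD37, an ankyrin repeat protein induced in hypoxia, was 7.80 and 7.71 with the isomiR, 7.71 and 7.54 with the canonical form, and 6.54 and 7.26 with control mimics (0.85 ± 0.24, adjusted p = 0.047). It was the highest member in both comparisons with the canonical form as well, 0.72 in MDA-MB-231 and 0.53 in MCF10A, neither of which was called. The P4HA1 call was lost without MDA-MB-231 control replicate 2 (0.60) or either isomiR array of that line (0.69 and 0.82). The ANKRD37 call was kept in 3 of 12 fits that each left out 1 array, those without an MCF10A isomiR array or without MDA-MB-231 control replicate 2, and without MDA-MB-231 control replicate 1 its fold change was 0.49. For P4HA1 and ANKRD37 the effects in the 2 lines differed by 0.41 ± 0.23 and 0.45 ± 0.34 (MDA-MB-231 minus MCF10A), neither of which was called.

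ADM, which encodes the vasodilator peptide adrenomedullin, had isomiR effects of opposite sign in the 2 lines, neither of them called. In MDA-MB-231 it was 11.44 and 11.56 with the isomiR, 10.66 and 10.64 with the canonical form, and 11.21 and 10.26 with control mimics. The isomiR arrays were above the rest, with 0.77 ± 0.24 against control (adjusted p = 0.072). The isomiR exceeded the canonical form by 0.85 ± 0.24, the highest value of any member in that comparison (adjusted p = 0.066). ADM was called in that comparison when the 8 mimic arrays were fitted alone, a fit chosen after seeing the data (adjusted p = 0.0019). In MCF10A the isomiR lay below control by 0.54 ± 0.24. The difference between the lines, 1.31 ± 0.34, had an adjusted p of 0.058. VEGFA, the angiogenic growth factor, and NDRG1, a stress-induced gene, were called with neither mimic. VEGFA was 8.45 and 8.61 with the isomiR in MDA-MB-231 and 8.71 and 8.15 with control mimics, and its isomiR and control arrays in MCF10A overlapped as well.

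HIF1A itself and its hydroxylase EGLN1 gave no call. HIF1A in MCF10A was 7.56 and 7.64 with the isomiR, 7.05 and 7.53 with the canonical form, and 8.12 and 7.94 with control mimics. All 4 mimic arrays were below both controls, with fold changes of -0.43 ± 0.16 (adjusted p = 0.081) for the isomiR and -0.74 ± 0.16 (adjusted p = 0.067) for the canonical form. The other 2 HIF1A probes gave -0.60 and -0.22 for the isomiR and -0.23 and -0.32 for the canonical form, both of the canonical values smaller in size than that of the chosen probe. In MDA-MB-231 the chosen probe gave 0.33 ± 0.16 with the isomiR and -0.12 ± 0.16 with the canonical form. The other 2 probes there gave -0.03 and 0.21 with the isomiR and -0.38 and -0.61 with the canonical form, so the 3 probes disagreed. EGLN1 had 0.69 ± 0.21 with the isomiR in MDA-MB-231 (adjusted p = 0.065). Its arrays there were 7.10 and 7.17 with the isomiR and 6.73 and 6.15 with control mimics.

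Set directly against each other, the mimics differed in few members. In MCF10A the isomiR was lower than the canonical form for PFKFB3, HK2 and ALDOC and higher for BNIP3L and P4HA2. These were 5 of 31 members, where 11.6% of all genes were called (6.43% lower and 5.21% higher). In MDA-MB-231 it was lower for LDHB alone and higher for no member (5.03% of all genes, 3.58% lower and 1.45% higher). HK2, PFKFB3, BNIP3L and P4HA2, which were called with the isomiR against control in MCF10A, had fold changes between -0.07 and 0.24 with the canonical form there.

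The response to the isomiR differed between the lines for 3 of 31 members, BNIP3L lower and SLC2A3 and PFKFB3 higher in MDA-MB-231 relative to MCF10A, where 5.48% of all genes were called (3.29% lower and 2.19% higher). For PFKFB3 the difference was 0.88 (95% interval 0.41 to 1.36, adjusted p = 0.043). That call was kept in 1 of 12 fits that left out an array, the one without MDA-MB-231 control replicate 1, over which the difference ran from 0.64 to 1.12. The BNIP3L difference ran from -2.36 to -1.30 over the same fits and was called in 7 of 12, the exceptions being without MCF10A control replicate 1 and without any 1 of the 4 isomiR arrays. The SLC2A3 difference reached 2.32 and was called in all 12.

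With control mimics the lines themselves stood apart in several of these genes. Both MDA-MB-231 control arrays were above both MCF10A control arrays for 16 of 31 members (38.5% of all genes) and below them for 6 (34.8%). Under control mimics 8 of 31 members were higher in MDA-MB-231 than in MCF10A and 2 were lower, where 40.4% of all genes were called (20.5% higher and 19.9% lower). SLC2A3 was 11.28 and 11.18 in MDA-MB-231 and 7.98 and 8.09 in MCF10A, 9.19-fold higher (3.20 ± 0.13, adjusted p = 3.7e-08). SLC2A1 was 11.85 and 11.71 in MDA-MB-231 and 10.58 and 10.41 in MCF10A, 2.44-fold higher (1.29 ± 0.12, adjusted p = 1.1e-05). Both glucose transporters thus read higher in the cancer line, the difference being larger for SLC2A3. How the authors normalized the deposited values was not given, and the values of the 2 lines may have been normalized separately. The study grew the lines in different media, so line and medium cannot be told apart here.

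ENO2 was 8.57 and 8.67 in MDA-MB-231 and not above background in MCF10A, at least 8.08-fold higher (adjusted p = 1.2e-08). The bound sets the mean of the MDA-MB-231 control arrays against the lowest signal above background on the MCF10A arrays. The mitophagy receptors BNIP3L and BNIP3 and the bifunctional enzyme PFKFB4, which also sets the level of fructose 2,6-bisphosphate, followed. BNIP3L was 9.24 and 10.30 in MDA-MB-231 and 6.94 and 7.24 in MCF10A (2.69 ± 0.27), and BNIP3 was 12.42 and 12.13 against 9.97 and 10.36 in MCF10A (2.11 ± 0.16). PFKFB4 was 9.16 and 8.77 in MDA-MB-231 and 6.52 and 7.25 in MCF10A (2.08 ± 0.24). VEGFA was 2.99-fold and ANKRD37 2.16-fold higher, and neither gene's control arrays overlapped between the lines. The ANKRD37 call was lost without background correction (0.56) and on the deposited values (0.58). Lower in MDA-MB-231 were EGLN1, with 6.73 and 6.15 against 8.27 and 7.71 in MCF10A (-1.55 ± 0.21), and ALDOC, with 7.87 and 7.30 against 9.16 and 8.91 in MCF10A (-1.45 ± 0.19). The abundant enzymes GAPDH (0.01), ENO1 (0.02), ALDOA (0.11) and TPI1 (0.12) gave no call between the lines.

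**Figure D2:**
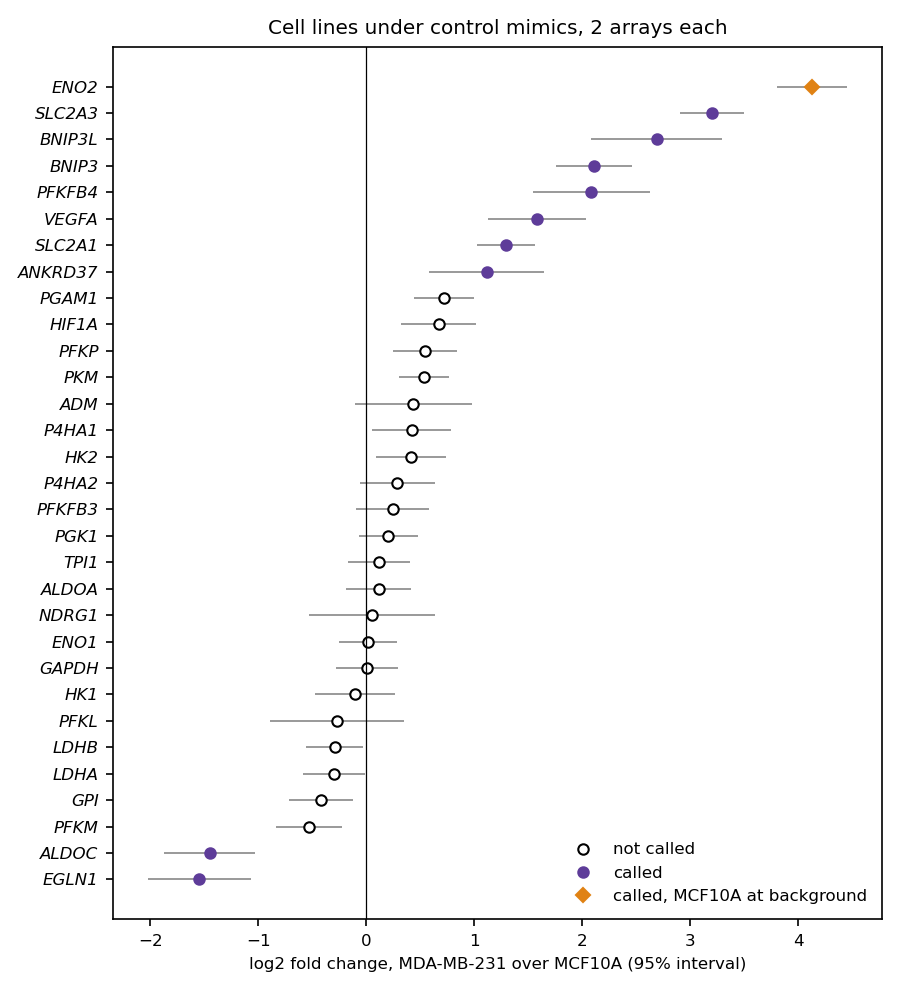
Log2 fold change of MDA-MB-231 over MCF10A under control mimics for the 31 tested members (x axis, with 95% intervals), ordered by size, with 2 arrays in each line. SLC2A3 at 3.20 was exceeded only by ENO2, whose MCF10A level was at background so that its position of 4.13 is no measured ratio.

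Ordered by the SLC2A3 level, the 6 groups were MDA-MB-231 with the isomiR, with control and with the canonical form, then MCF10A with control, with the canonical form and with the isomiR. Only the last pair of neighbours overlapped in their arrays. The step between the lines, from the lowest MDA-MB-231 array to the highest MCF10A array, was larger than any step between mimics within a line.

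The control arrays of a line differed from each other more than replicate mimic arrays did. In MDA-MB-231 the 2 control arrays differed by more than 0.5 for 7 of 31 members (22.6%, against 18.4% of all genes), and in MCF10A for 3 of 31 (9.68%, against 14.9%). No member differed so much between the replicate arrays of a microRNA mimic, except ANKRD37 with the isomiR in MCF10A (0.56). The widest gaps were in HIF targets in MDA-MB-231, BNIP3L (9.24 for mimic-ctrl1 and 10.30 for mimic-ctrl2), NDRG1 (11.53 and 10.49) and ADM (11.21 and 10.26). The 2 control mimics cannot be told apart from the spread between arrays, since each has 1 array a line.

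Leaving out 1 MDA-MB-231 control array changed which of these genes were called there. Without mimic-ctrl1, the isomiR called 5 members, of which ADM (1.25), EGLN1 (0.98) and NDRG1 (0.86) were new and higher. Without mimic-ctrl2 it called only ANKRD37 (1.21). For the canonical form, leaving out mimic-ctrl1 called NDRG1 (0.74) and leaving out mimic-ctrl2 called ANKRD37 (1.09), where none was called with both.

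**Figure D3:**
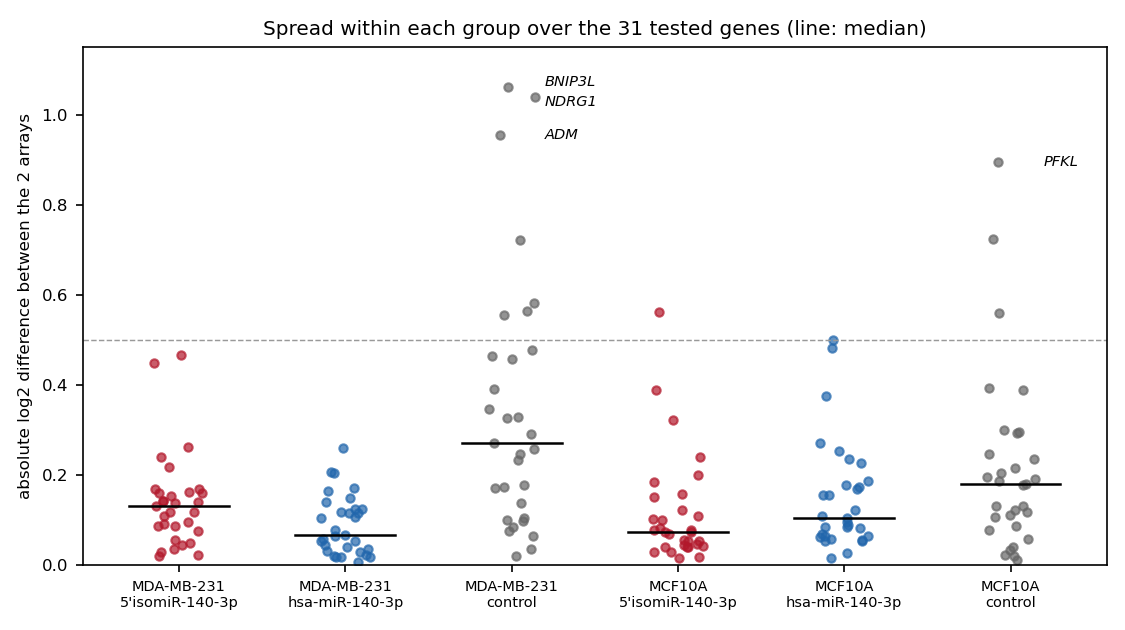
Absolute log2 difference between the 2 arrays of each of the 6 groups (y axis) for the 31 tested members, as points, with the median as a line and a dashed line at 0.5. The control groups hold 2 different control mimics and show the widest gaps, up to 1.06 for BNIP3L in MDA-MB-231.

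HIF binds short hypoxia response elements, whose core is ACGTG or GCGTG. RefSeq promoters (250 bases before to 50 after the start site, GRCh38.p14) were held for 31 of the 36 genes, SLC2A3 not among them, and they were searched on both strands for each core. An ACGTG that follows a C forms CACGTG, the E-box, which reads the core on both strands. A gene counted if any of its promoters held the core. Members had up to 7 promoters (HK1 and PFKM), and the shares were not adjusted for the number searched. ACGTG was found for 19 of 31 genes (61.3%), against 24.9% of all genes with a promoter, and GCGTG for 18 of 31 (58.1%), against 40.6%. The genes had been listed as hypoxia and glycolysis genes, so this share describes the list. A match is a string of letters and not a bound site. Windows around an ACGTG core, in capitals, are shown for members that held one and were called with the isomiR against control, on the strand of the gene.
HK2, chr2:74834965-74834993: attgctgcgcccACGTGggagggagcccc
PFKFB3, chr10:6202813-6202841: accctcctccccACGTGgaagggggctgg
ANKRD37, chr4:185396668-185396696: gcgccgggctccACGTGccagtgtttgtg
P4HA1, chr10:73096936-73096964, core on the other strand: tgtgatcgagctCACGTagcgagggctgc
In the first 3 windows the core lies within CACGTG. The first 2 belong to genes that fell with the isomiR in MCF10A and the other 2 to genes that rose with it in MDA-MB-231. A part of HIF in these changes was not tested. LDHB and P4HA2 held no ACGTG in the promoters used, while LDHB held GCGTG and P4HA2 held neither core. No promoter was held for BNIP3L.

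Other genes of the same pathways were taken from 7 lists of glucose and HIF pathway genes. In neither line did the canonical form call any gene of these lists, where 1.21% of all genes were called in MDA-MB-231 and 0.867% in MCF10A. With the isomiR the calls were scattered, where 5.09% of all genes were lower and 2.41% higher in MDA-MB-231, and 7.34% were lower and 5.25% higher in MCF10A. Of 12 other glucose and monocarboxylate transporters tested in each line, 1 rose in MDA-MB-231, and 1 fell and 1 rose in MCF10A. SLC2A12 (GLUT12) was 6.92 and 6.79 with the isomiR in MDA-MB-231 and 5.89 and 5.82 with control mimics. It was 1.99-fold higher (adjusted p = 0.0021), and no other SLC2A gene was called higher than control.

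In MCF10A the monocarboxylate transporter genes SLC16A9 and SLC16A5 moved apart. SLC16A9 was at background on both isomiR arrays and 7.16 and 6.93 on the control arrays, at least 2.72-fold lower (adjusted p = 7.2e-05). SLC16A5 was 9.06 and 8.93 with the isomiR and 7.76 and 7.87 with control mimics, 2.26-fold higher (adjusted p = 0.00037).

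Of 8 genes of pyruvate dehydrogenase and its regulators, 1 was called with the isomiR, higher in MCF10A (5.25% of all genes). PDK4, a kinase that switches pyruvate dehydrogenase off, was 10.46 and 10.40 with the isomiR in MCF10A, 7.52 and 7.65 with the canonical form, and 7.94 and 7.55 with control mimics, 6.44-fold higher than control (2.69 ± 0.19, adjusted p = 3.7e-05). This rise exceeded that of any of the 31 members. In MDA-MB-231 PDK4 was at background on all control arrays and on 1 of the 2 isomiR arrays.

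Of 17 other genes of glycolysis and gluconeogenesis, 2 fell in MDA-MB-231 (5.09% of all genes), and 2 fell (7.34%) and 1 rose (5.25%) in MCF10A. PGM2, a phosphoglucomutase that acts on pentose phosphates as well, fell in both lines. In MDA-MB-231 it was 7.45 and 7.56 with the isomiR and 8.25 and 8.84 with control mimics (48.6%, adjusted p = 0.015). In MCF10A both isomiR arrays were again below both control arrays, which had 8.35 and 8.91 (46.9%, adjusted p = 0.0072). The others were BPGM in MDA-MB-231 (62.1% of control, with 1 of 2 isomiR arrays at background) and UGP2 (57.0%) and ENO3 in MCF10A. ENO3 was at background on both control arrays and on 1 of 2 isomiR arrays there, so its call rests on signal near background. In the pentose phosphate list none of 8 fell in MDA-MB-231 (5.09% of all genes) and 2 fell in MCF10A (7.34%), the phosphoribosyl pyrophosphate synthetases PRPS2 (46.6%, adjusted p = 0.0012) and PRPS1 (54.6%, adjusted p = 0.0025).

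Of 33 other hypoxia-induced genes, STC1 and MXI1 were called lower with the isomiR in each line (5.09% of all genes in MDA-MB-231 and 7.34% in MCF10A) and ZNF395 higher in MCF10A (5.25%). These counts are near those shares. STC1, a secreted glycoprotein, was 8.98 and 8.85 with the isomiR in MDA-MB-231 and 9.98 and 9.64 with control mimics (53.7%, adjusted p = 0.031), and was above background on 1 of the 4 isomiR and control arrays of MCF10A. ZNF395 was 11.16 and 11.06 with the isomiR in MCF10A and 9.99 and 10.41 with control mimics (1.88-fold higher, adjusted p = 0.034). MXI1, which encodes an antagonist of MYC, was at background on all MDA-MB-231 arrays and on both isomiR arrays of MCF10A, at least 1.03-fold lower there, so that its calls rest on signal near background. None of 17 other HIF pathway regulators was called with either mimic. TXNIP, which encodes an inhibitor of glucose uptake whose transcript rises with glucose, was 7.61 and 7.48 with the isomiR in MDA-MB-231 and 8.29 and 8.66 with control mimics (52.5%, adjusted p = 0.0046). It was the only one of 10 glucose-responsive and upstream regulators that was called there (5.09% of all genes lower).

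Of 10 markers of other cell types 4 were above background in each line and were tested. With the isomiR 1 of these 4 was called higher in MCF10A, PECAM1 (5.25% of all genes). In MDA-MB-231 1 was called lower, ACTA2 (5.09% of all genes). The endothelial genes VWF and CDH5 were at background on all arrays. PECAM1, an endothelial and platelet adhesion gene, was 7.99 and 7.59 with the isomiR in MCF10A and at background on both control arrays, at least 4.54-fold higher (adjusted p = 0.0011). ACTA2, a smooth muscle actin gene, was at background on both isomiR arrays of MDA-MB-231 and 6.64 and 5.92 on its control arrays, at least 1.66-fold lower (adjusted p = 0.017). It was also lower with the isomiR than with the canonical form in both lines, at least 2.12-fold in MDA-MB-231 (3.58% of all genes lower) and by -0.85 in MCF10A (6.43%). Of 7 epithelial markers tested in MCF10A, the isomiR called 1 lower (7.34% of all genes) and 2 higher (5.25%). The canonical form called 1 lower (0.724%) and 1 higher (0.143%). KRT14 fell to 36.8% of control with the isomiR and to 51.5% with the canonical form (adjusted p = 0.029). EPCAM rose 2.25-fold with the isomiR and 1.95-fold with the canonical form (adjusted p = 0.034). CDH1 rose 2.23-fold with the isomiR, and FOXA1, 1 of 3 luminal markers tested, fell to 64.0% of control with it (adjusted p = 0.011). Of 7 mesenchymal markers tested in MCF10A only CAV1 was called with the isomiR, at 55.9% of control (adjusted p = 0.00215). The share of all genes called lower with the isomiR there was 7.34%. KRT14 and EPCAM were thus called with both mimics in MCF10A, as SLC2A3 was. The part of these changes in the results on the 31 members was not tested.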

How the data were processed

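RNA of the 12 transfected cultures had been hybridised to Illumina HumanHT-12 v4 BeadChips. The deposited values were linear intensities that the authors had normalized, with the method not given in the sources used here, and without background subtraction (array medians 107 to 109). A second deposited table of unnormalized intensities and detection p-values was not used, because none of its 24 columns of per-sample values could be tied to a sample by its labels. Of 47323 probes, 4 with missing values were left out. The remaining 47319 were named through the platform annotation, which paired 30111 probes with 1 gene, 8 with several and 17200 with none.

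Intensities were corrected by normexp (limma 3.58.1, R 4.3.3) with 457 olfactory receptor probes as negative controls and an offset of 16, quantile normalized over 12 arrays and put on the log2 scale. A probe counted as above background over the 0.99 quantile of those probes on an array, and named probes that passed on at least 2 arrays were kept (13705). The brightest of a gene's probes by mean level stood for it, which left 10491 genes. The number of arrays limits the precision.

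A linear model with 6 group means was fitted (lmFit, eBayes; 6 residual and 3.79 prior degrees of freedom) with Benjamini-Hochberg adjustment over all genes, and calls used the 65% limits of the study's methods. The methods name biological replicates, and p-values measure the spread between these arrays. In simulated data for 5'isomiR-140-3p against control in MCF10A (10491 genes, 50 changed at each size), this fit recovered 92% of genes given a log2 change of -1.5. It recovered 62% at -1, 42% at -0.7 and 84% at 1.5. Many more genes were called in the data (1321), and the adjustment of p depends on that number, so these shares need not hold for the data.

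The members, lists and tests were chosen with earlier results of these data known. Named by value were SLC2A3, SLC2A1, GAPDH, HIF1A, members called with a mimic or with the lowest or highest change, those at background, the largest changes between the lines and up to 4 called genes a list. Members outside this rule that are given by value (PFKL, PFKFB4, EGLN1, LDHA, BNIP3 and others) were chosen after their values were seen. Alternatives were other background corrections, scalings, filters, probe rules and tests, a replicate block and leaving out each array. An unadjusted form of the methods' t-test and a fit of the 8 mimic arrays without a block were added after the data had been seen. Mimic and promoter sequences were taken from RefSeq (GRCh38.p14).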

Additional observations from a re-analysis of the deposited data

Results flagged for a closer look

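The effect of 5'isomiR-140-3p differed between MDA-MB-231 and MCF10A, by the test of the difference itself, for 3 members. The difference (MDA-MB-231 minus MCF10A, log2) was 2.16 for SLC2A3 (adjusted p = 0.00044, limma), which had 0.39 against control in MDA-MB-231 and -1.77 in MCF10A. It was 0.88 for PFKFB3 (adjusted p = 0.043), with 0.05 in MDA-MB-231 and -0.84 in MCF10A. For BNIP3L it was -1.83 (adjusted p = 0.025), with 0.12 in MDA-MB-231 and 1.95 in MCF10A, and the 2 control arrays of MDA-MB-231 differed by 1.06 for that gene. Groups of 2 arrays were too small for a test of outlying samples.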

How the results depend on the processing

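With 5'isomiR-140-3p against control in MCF10A, 5 members were called, 3 when a gene's probes were averaged, and 4 to 5 when each array was left out in turn. In MDA-MB-231 the count was 3, with 1 under median scaling, 1 on the deposited values, 5 with trended and robust moderation, and 0 to 5 without single arrays, the extremes being without isomiR replicate 2 and without control replicate 1 of that line. With hsa-miR-140-3p against control the count in MCF10A was 1, with 0 when each line was fitted alone, 2 under trended and robust moderation and 1 without any single array, and in MDA-MB-231 it was 0, with at most 1 without a control array. Between the mimics in MCF10A it was 5, with 3 for the mean of probes and 4 to 6 without single arrays. In MDA-MB-231 it was 1, with 2 without background correction, 2 on deposited values, 2 with trended and robust moderation, 2 without the fold threshold and 0 to 2 without single arrays. The difference between lines in the isomiR effect gave 3, with 5 without background correction, 5 on deposited values, 5 with trended and robust moderation, 1 with the mean of probes and 1 to 5 without single arrays, and that of the canonical form gave 0, with 1 (SLC2A3) under trended and robust moderation. Between the lines 10 members were called, 17 without the fold threshold and 10 to 13 without single arrays.

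After Benjamini-Hochberg adjustment the methods' t-test called 0 members in every comparison of mimics within a line and 2 between the lines (SLC2A3 and ENO2). Unadjusted, an option added after the data had been seen, it called 1 for the isomiR against control and 2 between the mimics in MDA-MB-231. In MCF10A the unadjusted form kept the calls of SLC2A3, BNIP3L, PFKFB3, P4HA2 and HK2 with the isomiR against control. It also kept that of SLC2A3 with the canonical form, and those of PFKFB3, HK2, ALDOC, BNIP3L and P4HA2 between the mimics. With a replicate block on the 8 mimic arrays, the mimics differed in 6 members in MCF10A and 2 in MDA-MB-231. The same 8 arrays without a block, also added later, gave 6 and 2. Same-numbered isomiR and canonical arrays did not deviate together (r = 0.0212 in MCF10A and -0.021 in MDA-MB-231 over 10491 genes). No pairing by number was seen, but this check cannot show that same-numbered samples were prepared apart.

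Over the named genes and alternatives 662 values kept direction and call, 89 lost the call, 2 gained one and 0 reversed. The cause of these shifts was not tested, except that leaving out arrays leaves fewer samples. On the deposited values, from which no background was taken, SLC2A3 in MCF10A had -1.12 with the isomiR and -1.04 with the canonical form, both called.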
